A study of Mus musculus with 2 samples.

Results

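The collagen gene family was followed in pancreatic tissue of 1 female C57BL/6J mouse, an adult of 10 weeks. Its members were the protein-coding genes whose symbol has the form Col, a number, a and a number, and 44 of the 43346 genes in both deposited tables met this rule. Polyadenylated RNA from this tissue, extracted with a lipid tissue kit, was sequenced as 2 technical replicate libraries. Replicate 2 was the later library and replicate 1 the earlier one. Both are labelled as biological replicate 1, and the labels name no treatment, allele or agent for either library. Differences between the libraries therefore hold no variation between animals, and no condition was compared. Replicate 2 held 9797579 expected counts, and replicate 1 held 9441562.

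Collagens are extracellular matrix proteins whose chains wind into a triple helix, which needs the glycine that opens each unit of the repeat Gly-X-Y. Fibrillar collagens form the tensile fibrils of connective tissue, type IV collagen forms the network of basement membranes, type VI collagen forms beaded microfilaments, and FACIT collagens bind to the surface of fibrils. Multiplexins and the anchoring fibril collagen join basement membranes to the matrix beside them, and transmembrane collagens sit in the cell surface. In the pancreas, collagen surrounds acini, ducts, islets and vessels, and much of the fibrillar kind is known to come from fibroblasts and stellate cells.

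The repeat is visible in the coding exons of the members that carried most of the family's RNA. The exons below are read from the transcripts of GENCODE M21 on GRCm38, 5′ to 3′ on the strand of the gene, and glycine codons are in capitals. The first 5 are 54 bases long, which is 6 Gly-X-Y triplets, and they are shown because this exon size is frequent in the fibrillar class and recurs in others. The Col4a1 exon lies in the longest uninterrupted run of its gene and starts inside a codon.
Col1a1 exon 8, chr11:94939904-94939957 (plus strand): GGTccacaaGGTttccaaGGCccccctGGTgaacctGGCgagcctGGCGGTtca
Col1a2 exon 8, chr6:4515481-4515534 (plus strand): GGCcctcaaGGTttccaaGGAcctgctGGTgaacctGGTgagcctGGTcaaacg
Col3a1 exon 6, chr1:45325360-45325413 (plus strand): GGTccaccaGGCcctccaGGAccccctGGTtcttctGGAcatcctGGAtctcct
Col6a1 exon 9, chr10:76719623-76719676 (minus strand): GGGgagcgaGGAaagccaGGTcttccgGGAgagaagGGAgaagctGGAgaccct
Col7a1 exon 107, chr9:108980207-108980260 (plus strand): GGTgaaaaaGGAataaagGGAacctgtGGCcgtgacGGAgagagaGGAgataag
Col4a1 exon 45, chr8:11210760-11210831 (minus strand): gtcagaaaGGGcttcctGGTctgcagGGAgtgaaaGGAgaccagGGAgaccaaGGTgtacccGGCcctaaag
Exons of 54 bases made up 48.6% of the internal coding exons of the 11 fibrillar genes, which is 305 of 627 exons, against 0.735% of the internal coding exons of all 21805 genes examined, which is 1165 of 158429 exons. In the basement membrane class they made up 4.23%, in the beaded filament class 8.25% and in the FACIT class 26.3%. Only 18 genes of the genome annotation had 10 or more such exons, and 17 of them were collagens. The exception was Gm11639, whose transcript had 65, and it was named after its value was seen. Exon lengths that are multiples of 9 bases, a whole number of triplets, made up 83.9% in fibrillar genes and 14.3% in all genes. Other collagen classes also lay above the share of all genes. The share was 70.7% in transmembrane genes, 65.5% in Col7a1, 55.1% in FACIT and 54.4% in beaded filament genes. It was 47.2% in basement membrane genes, 37.7% in multiplexins and 30.2% in the genes outside these classes.

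The longest uninterrupted glycine repeat set the fibrillar class apart, while most of the other classes overlapped one another. It spanned 216 to 344 triplets in fibrillar genes, where Col3a1, the type III chain, had the longest run with 344 and Col27a1 and Col24a1 had 217 and 216. Basement membrane genes had runs of 39 to 66 triplets, of which the 66 belonged to Col4a2. Beaded filament genes had 37 to 87, both multiplexins had 30, and Col7a1 had 75. In 4 FACIT genes, Col9a1, Col9a2, Col9a3 and Col22a1, the run was 113 triplets, and in the other FACIT genes it was 32 to 57. Transmembrane genes had 40 to 56 and network-forming genes 60 to 61.

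**Figure D1:**
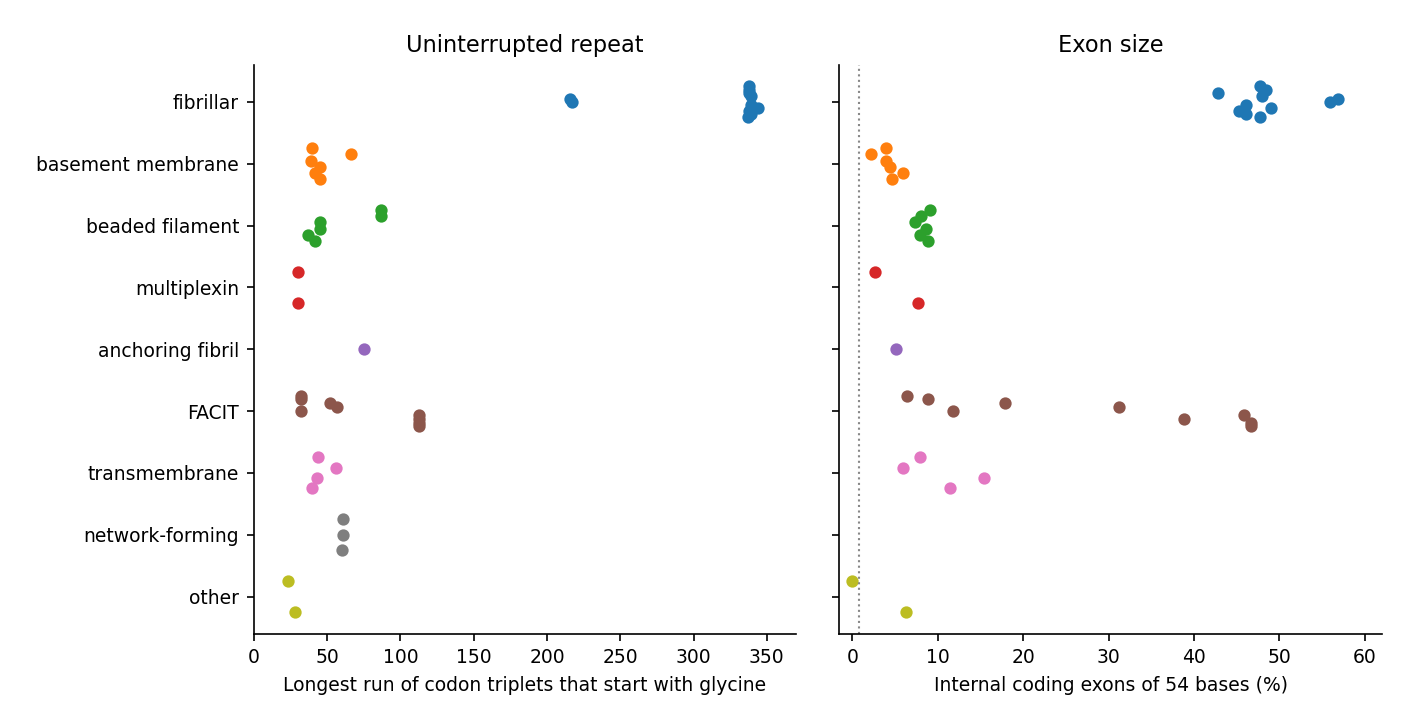
Each point is 1 of the 44 collagen genes, grouped by class. The left panel gives the longest uninterrupted run of codon triplets that start with glycine, and the right panel gives the percent of internal coding exons that are 54 bases long, with the share over all genes (0.735%) as a dotted line. The 11 fibrillar genes lie at 216 triplets or above and at 42.9% or above, the network-forming genes have no internal coding exon and are absent on the right, and 4 FACIT genes share a run of 113.

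In the family as a whole, transcripts of the 44 genes summed to 303 TPM in replicate 2 and 326 TPM in replicate 1, where TPM is a transcript abundance corrected for length and scaled to the same total in both libraries. As shares of all counts, they took 0.103% in replicate 2 (95% exact interval 0.101% to 0.105%, 10085 counts) and 0.137% in replicate 1 (0.135% to 0.140%, 12961 counts). The intervals cover counting error only. A single annotated gene, Gm42418, took 42.8% of counts in replicate 2 and 16.9% in replicate 1, and mitochondrial genes took 3.17% in replicate 2 and 17.6% in replicate 1. Outside these, Gm26917 and Lars2, collagens held 0.211% of counts in replicate 2 and 0.212% in replicate 1.

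Of the 44 genes, 21 reached 1 TPM in both libraries, which is 47.7% of the family, against 46.4% of all 21474 protein-coding genes. Another 2 reached it in 1 library only, Col9a3 in replicate 2 and Col12a1 in replicate 1. Counts but less than 1 TPM in both libraries were found for 16 genes, and 5 had no count in either. RNA was concentrated in few genes, since the 10 highest held 81.0% of collagen TPM in replicate 2 and 85.4% in replicate 1. Across the 44 genes the order was alike in both libraries, with a Pearson correlation of 0.98 on log2(TPM + 1) and a Spearman correlation of 0.96. Both describe 2 technical replicate libraries of the tissue of 1 animal.

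**Figure D2:**
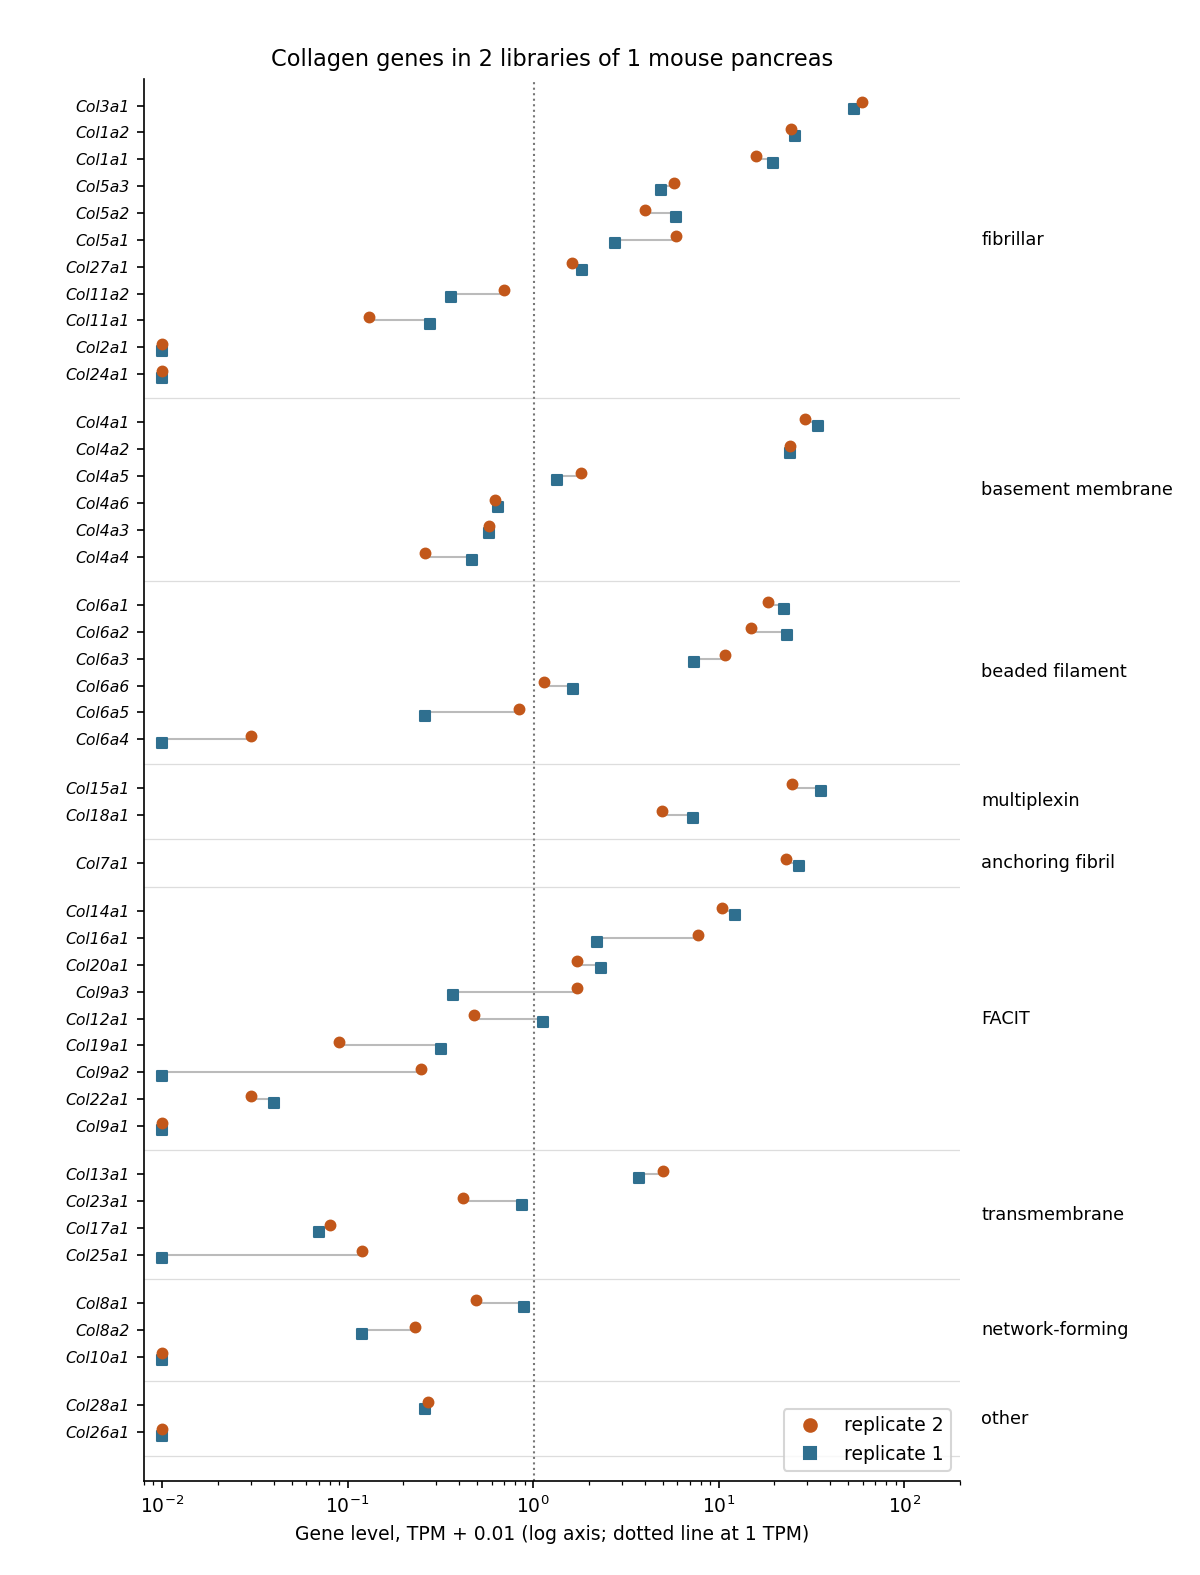
Level of every collagen gene in TPM with 0.01 added, on a log axis, in replicate 2 (circles) and replicate 1 (squares), grouped by class and ordered by mean level. Dots right of the dotted line exceed 1 TPM. Col3a1 is the highest with 59.5 TPM in replicate 2 and 53.5 TPM in replicate 1, and the 5 genes at the left edge with both symbols, Col2a1, Col24a1, Col9a1, Col10a1 and Col26a1, had no counts.

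Fibrillar collagens were the most abundant class at 117 ± 2.14 TPM (SD, n = 2 libraries). They took 39.0% of collagen TPM in replicate 2 and 35.3% in replicate 1. Col3a1 (chr1:45311538-45349706, plus strand), a main chain of vessel walls and soft tissue, had 59.5 TPM in replicate 2 and 53.5 TPM in replicate 1, from 1630 counts in replicate 2 and 2516 counts in replicate 1. It held rank 350 among protein-coding genes by mean TPM and was the highest collagen in both libraries.

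Type I collagen, the main fibril protein of most connective tissue, is built from the chains of Col1a1 and Col1a2. Col1a2 (chr6:4504814-4541544, plus strand) had 24.6 TPM in replicate 2 and 25.9 TPM in replicate 1. Col1a1 (chr11:94936224-94953042, plus strand) had 16.0 TPM in replicate 2 and 19.8 TPM in replicate 1. The RNA of the alpha-1 chain was thus below that of the alpha-2 chain in both libraries, at a ratio of 0.649 in replicate 2 (95% interval 0.586 to 0.719) and 0.761 in replicate 1 (0.698 to 0.831).

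Type V collagen, which is known to start fibrils of type I, was lower. Col5a3 had 5.74 TPM in replicate 2 and 4.86 TPM in replicate 1. Col5a2 had 4.0 TPM in replicate 2 and 5.92 TPM in replicate 1. Col5a1 had 5.88 TPM in replicate 2 and 2.75 TPM in replicate 1, so the ratio of Col5a1 to Col5a2 was 1.47 in replicate 2 and 0.465 in replicate 1. That ratio lay on either side of 1, and over full-length coding transcripts it was 0.806 in replicate 2 and 0.503 in replicate 1. Col27a1 had 1.61 TPM in replicate 2 and 1.82 TPM in replicate 1. Col11a2 and Col11a1, minor chains of cartilage fibrils, stayed between 0.12 and 0.69 TPM in both libraries, and Col2a1, the main cartilage fibril chain, had no count, nor did Col24a1. No count allows up to 0.306 CPM, the share of counts on the same scale, in replicate 2 and 0.318 CPM in replicate 1, taken as 3 counts per library.

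Basement membrane collagens summed to 59.0 ± 3.22 TPM (SD, n = 2 libraries), and their share was 18.7% in replicate 2 and 18.8% in replicate 1. Col4a1 (chr8:11198423-11312826, minus strand) and Col4a2 (chr8:11312805-11449287, plus strand) encode the chains found in nearly every basement membrane. Col4a1 had 29.1 TPM in replicate 2 and 34.1 TPM in replicate 1. Col4a2 had 24.3 TPM in replicate 2 and 24.1 TPM in replicate 1, so the Col4a1 to Col4a2 ratio was 1.2 in replicate 2 (95% interval 1.10 to 1.30) and 1.42 in replicate 1 (1.32 to 1.52). Both exceeded 1 beyond counting error, and over full-length coding transcripts the ratio was 1.36 in replicate 2 and 1.40 in replicate 1. The intervals of the libraries did not overlap, so the ratios differed between them by more than counting error. Of the chains with a narrower known distribution, as in the kidney filter, Col4a5 had 1.81 TPM in replicate 2 and 1.33 TPM in replicate 1. Col4a6, Col4a3 and Col4a4 had 0.25 to 0.61 TPM in replicate 2 and 0.46 to 0.64 TPM in replicate 1.

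The 6 type IV genes lie head to head in pairs. The annotated starts of Col4a1 and Col4a2 are 21 bases apart on opposite strands, those of Col4a3 and Col4a4 are 72 bases apart on chromosome 1, and those of Col4a5 and Col4a6 are 1309 bases apart on chromosome X. The shared start region of the most abundant pair is printed from RefSeq (GRCm38.p6), from 250 bases before to 50 bases after each start, with matches to CCAAT and GGGCGG on either strand in capitals.
Col4a1 promoter, chr8:11312777-11313076 (minus strand): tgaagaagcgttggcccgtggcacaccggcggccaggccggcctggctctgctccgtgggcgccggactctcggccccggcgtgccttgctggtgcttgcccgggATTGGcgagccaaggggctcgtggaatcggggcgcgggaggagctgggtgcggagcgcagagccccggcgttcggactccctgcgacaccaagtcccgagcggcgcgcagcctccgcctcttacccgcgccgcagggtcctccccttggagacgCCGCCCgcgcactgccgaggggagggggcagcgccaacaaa
Col4a2 promoter, chr8:11312555-11312854 (plus strand): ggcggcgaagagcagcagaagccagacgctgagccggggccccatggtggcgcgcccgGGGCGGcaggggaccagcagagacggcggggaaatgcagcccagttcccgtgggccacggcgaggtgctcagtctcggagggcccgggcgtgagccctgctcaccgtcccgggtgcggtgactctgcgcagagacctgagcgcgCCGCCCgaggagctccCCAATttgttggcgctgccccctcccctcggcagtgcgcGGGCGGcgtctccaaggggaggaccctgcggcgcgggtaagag
The Col4a1 window held 1 match to GGGCGG and the Col4a2 window 3, and both held 1 match to CCAAT and none to TATAAA. The windows overlap around the paired starts, and they were 74.0% and 73.7% G and C, against a median of 52.7% over all 32851 windows. Windows were found for 35 of the 44 collagen genes, 38 windows in all, and not for Col9a3, Col5a2, Col4a3, Col2a1, Col12a1, Col1a1, Col14a1, Col22a1 and Col26a1. GGGCGG was found in 23 collagen windows (60.5%, against 35.7% of all windows), CCAAT in 13 (34.2%, against 37.4%) and TATAAA in 5 (13.2%, against 13.6%). These are letter matches and not sites. The collagen windows had a median of 59.8% G and C, above that of all windows, and the shares were not adjusted for this. Overlapping windows, as those of Col4a1 and Col4a2, can count the same bases more than once.

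Beaded filament collagens summed to 50.6 ± 6.14 TPM (SD, n = 2 libraries), with a share of 15.3% in replicate 2 and 16.9% in replicate 1. Col6a1 (chr10:76708792-76726168, minus strand) had 18.5 TPM in replicate 2 and 22.4 TPM in replicate 1. Col6a2 (chr10:76595762-76623630, minus strand) had 14.9 TPM in replicate 2 and 23.3 TPM in replicate 1. Their ratio, Col6a1 to Col6a2, was 1.24 in replicate 2 (95% interval 1.09 to 1.41) and 0.961 in replicate 1 (0.868 to 1.06), so the interval included 1 in replicate 1 alone. Col6a3, whose long chain joins these in the type VI monomer, had 10.9 TPM in replicate 2 and 7.4 TPM in replicate 1. Its alternates were lower. Col6a6 had 1.13 TPM in replicate 2 and 1.63 TPM in replicate 1, Col6a5 had 0.83 TPM in replicate 2 and 0.25 TPM in replicate 1, and Col6a4 had 1 count in replicate 2 and none in replicate 1.

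Among the remaining classes, multiplexins came next. Col15a1 (chr4:47208161-47313167, plus strand), found at the basement membrane zone of vessels and muscle, had 24.9 TPM in replicate 2 and 35.7 TPM in replicate 1. Col18a1 (chr10:77052178-77166548, minus strand), whose C-terminal fragment is endostatin, had 4.93 TPM in replicate 2 and 7.31 TPM in replicate 1. Col7a1 (chr9:108953586-108984875, plus strand), known from the anchoring fibrils below stratified epithelia such as skin, had 22.9 TPM in replicate 2 and 27.2 TPM in replicate 1.

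In the FACIT class, Col14a1, a surface partner of type I fibrils, had 10.4 TPM in replicate 2 and 12.2 TPM in replicate 1. Col16a1 had 7.77 TPM in replicate 2 and 2.20 TPM in replicate 1. Col20a1 had 1.71 TPM in replicate 2 and 2.30 TPM in replicate 1, and BX649560.1, with 40 counts in replicate 2 and 44 in replicate 1, overlaps it by 741 bases on the same strand. The deposited posterior SD of the Col20a1 count was 0 in both libraries. Its short transcript Col20a1-204 (633 bases, incomplete start) had 0.75 TPM in replicate 2 and 1.15 TPM in replicate 1. Its protein-coding transcripts of near full length had 0.96 TPM in replicate 2 and 1.14 TPM in replicate 1. Near the threshold, Col9a3, a chain of cartilage type IX collagen, had 1.71 TPM in replicate 2 and 0.36 TPM in replicate 1 from 13 counts in replicate 2 and 9 in replicate 1. In replicate 2, 1.32 TPM of this came from 4.88 counts of Col9a3-206, a retained-intron transcript of 644 bases. Its protein-coding transcripts of near full length had 0.39 TPM in replicate 2 and 0.36 TPM in replicate 1. Col12a1 had 0.47 TPM in replicate 2 and 1.12 TPM in replicate 1. Of this, the short transcript Col12a1-204 (1784 bases, incomplete start) had 0.23 TPM in replicate 2 and 0.63 TPM in replicate 1. The longer coding transcripts of Col12a1 had 0.23 TPM in replicate 2 and 0.49 TPM in replicate 1. The partners of Col9a3 were at or near 0, since Col9a2 had 5 counts in replicate 2 and none in replicate 1, and Col9a1 had none. Col19a1 and Col22a1 stayed at 0.31 TPM or below.

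Of the transmembrane collagens, Col13a1 had 4.99 TPM in replicate 2 and 3.72 TPM in replicate 1. Col23a1 had 0.41 TPM in replicate 2 and 0.86 TPM in replicate 1, while Col17a1, the collagen of hemidesmosomes, and Col25a1 had at most 4 counts in either library. The network-forming genes were Col8a1, with 0.48 TPM in replicate 2 and 0.88 TPM in replicate 1, and Col8a2, with 0.22 TPM in replicate 2 and 0.11 TPM in replicate 1. Col10a1, a marker of hypertrophic cartilage, had no count. The 2 genes outside these classes were Col28a1, with 0.26 TPM in replicate 2 and 0.25 TPM in replicate 1, and Col26a1, with no count.

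**Figure D3:**
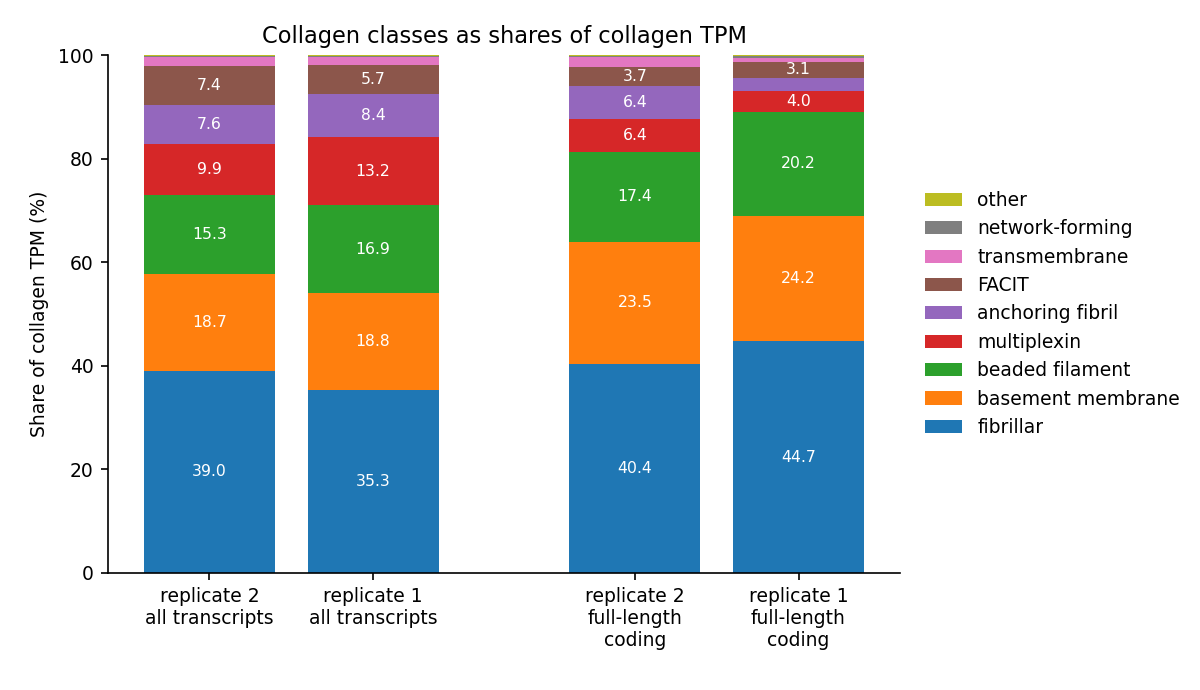
Each bar stacks the classes as percent of the collagen TPM of 1 library, with fibrillar genes at the bottom. The left pair uses all transcripts of each gene and the right pair only full-length coding transcripts. The fibrillar share is 39.0% in replicate 2 and 35.3% in replicate 1 over all transcripts, and 40.4% in replicate 2 and 44.7% in replicate 1 over full-length coding transcripts.

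Gene TPM sums over all annotated transcripts of a gene, and for several collagens short transcripts carried much of it. A full-length coding transcript was defined, after the values had been seen, as a protein-coding one of at least 50% of the length of the gene's longest coding transcript. This rule did not ask for complete ends. It therefore also took in Col16a1-210 and Col4a5-204, which are annotated with incomplete starts, and Col15a1-204, which starts 79908 bases inside its gene. Such transcripts held 72.2% of collagen TPM in replicate 2 and 76.4% in replicate 1. Among the 15 genes with a mean of 100 counts or more, 6 had at least 90% of TPM in them in both libraries, and Col15a1 and Col6a3 had less than 50% in both. A short transcript turns few counts into a high TPM, so these assignments weigh more in TPM than in counts.

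Col3a1 is the clearest case. Its fragment transcript Col3a1-205, 737 bases long and annotated with incomplete ends, took 36.7% of the gene's TPM in replicate 2 from 96.1 counts (posterior SD 11.0), and it was listed at 0 in replicate 1. The full-length transcript Col3a1-201 had 37.6 TPM in replicate 2 and 53.2 TPM in replicate 1. Which library held the higher value for Col3a1 thus depended on the transcripts counted. In Col5a1, Col5a1-202 (1049 bases, incomplete ends) had 2.93 TPM in replicate 2 and was listed at 0 in replicate 1, and full-length Col5a1-201 had 2.95 TPM in replicate 2 and 2.75 TPM in replicate 1.

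In Col15a1, the largest TPM went to Col15a1-203, a coding transcript of 1755 bases that starts 95561 bases inside the gene. It held 54.4% of the gene's TPM in replicate 2 and 77.4% in replicate 1, and by posterior mean TPM 44.2% in replicate 2 and 67.2% in replicate 1. By counts it had 163 in replicate 2 and 385 in replicate 1, beside 277 in replicate 2 and 274 in replicate 1 for the longest transcript, Col15a1-202. All full-length coding transcripts of Col15a1 together had 9.01 TPM in replicate 2 and 6.27 TPM in replicate 1, so that replicate 2 was the higher one there and the lower one in gene TPM. In Col14a1, the short Col14a1-204 held 46.8% in replicate 2 and 55.7% in replicate 1. In Col6a3, Col6a3-206, a retained-intron transcript of 646 bases, held 62.4% in replicate 2 and 52.1% in replicate 1.

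Col7a1 was split over retained-intron fragments. Its full-length transcripts Col7a1-201 and Col7a1-202 together held 60.9% of the gene's TPM in replicate 2 and 23.2% in replicate 1, although they held 96.9% of its counts in replicate 2 and 89.6% in replicate 1. Full-length Col7a1 was 14.0 TPM in replicate 2 and 6.32 TPM in replicate 1. The retained-intron transcript Col7a1-205 (695 bases) held 31.3% in replicate 2 and 34.3% in replicate 1, and Col7a1-207 (245 bases) held 7.72% in replicate 2 and 32.6% in replicate 1. Division of counts between the nearly identical Col7a1-201 and Col7a1-202 had a posterior SD of 132 counts in replicate 2 and 77.0 counts in replicate 1, so it is uncertain.

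Col18a1 has transcripts from an upstream start and from a downstream region with separate starts. A window from each region is shown because the libraries divided its counts differently between them. The windows follow RefSeq (GRCm38.p6), with the same motifs in capitals.
Col18a1 upstream promoter, chr10:77166481-77166780 (minus strand): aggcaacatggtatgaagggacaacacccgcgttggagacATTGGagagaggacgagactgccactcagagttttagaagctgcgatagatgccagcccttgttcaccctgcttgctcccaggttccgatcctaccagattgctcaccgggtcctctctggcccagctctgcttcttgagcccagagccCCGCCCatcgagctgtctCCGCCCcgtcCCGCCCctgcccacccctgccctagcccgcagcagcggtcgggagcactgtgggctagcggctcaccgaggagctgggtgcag
Col18a1 downstream promoter, chr10:77113656-77113955 (minus strand): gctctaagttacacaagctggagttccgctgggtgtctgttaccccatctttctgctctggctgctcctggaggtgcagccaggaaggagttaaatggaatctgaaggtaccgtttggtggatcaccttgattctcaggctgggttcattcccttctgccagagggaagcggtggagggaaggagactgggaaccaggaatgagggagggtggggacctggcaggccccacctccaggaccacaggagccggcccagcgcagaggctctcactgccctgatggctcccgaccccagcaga
The upstream window held 3 matches to GGGCGG and 1 to CCAAT, and the downstream window held none of these motifs. The downstream window fits the start of Col18a1-203 at 77113705. Col18a1-201 starts at 77113946, near the 5′ edge of that window, so most of the bases before its start are not shown. Both transcripts are grouped here as the downstream start. Transcripts of the downstream start, Col18a1-201 and Col18a1-203, took 103 of 193 counts in replicate 2 and 1.86 of 195 counts in replicate 1. In replicate 2, Col18a1-201 took 62.5 of these counts and Col18a1-203 took 40.3. Col18a1-202 of the upstream start took 90.2 counts in replicate 2 and 161 counts in replicate 1. By posterior mean TPM, the downstream start had 42.6% in replicate 2 and 7.44% in replicate 1, while the upstream start had 46.5% in replicate 2 and 47.0% in replicate 1. The short transcript Col18a1-204 had 5.72% in replicate 2 and 30.5% in replicate 1 by the same measure. The 3′ exons are shared between these transcripts, so the division is an estimate, with a posterior SD of 14.5 counts in replicate 2 and 18.7 counts in replicate 1 for Col18a1-201.

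**Figure D4:**
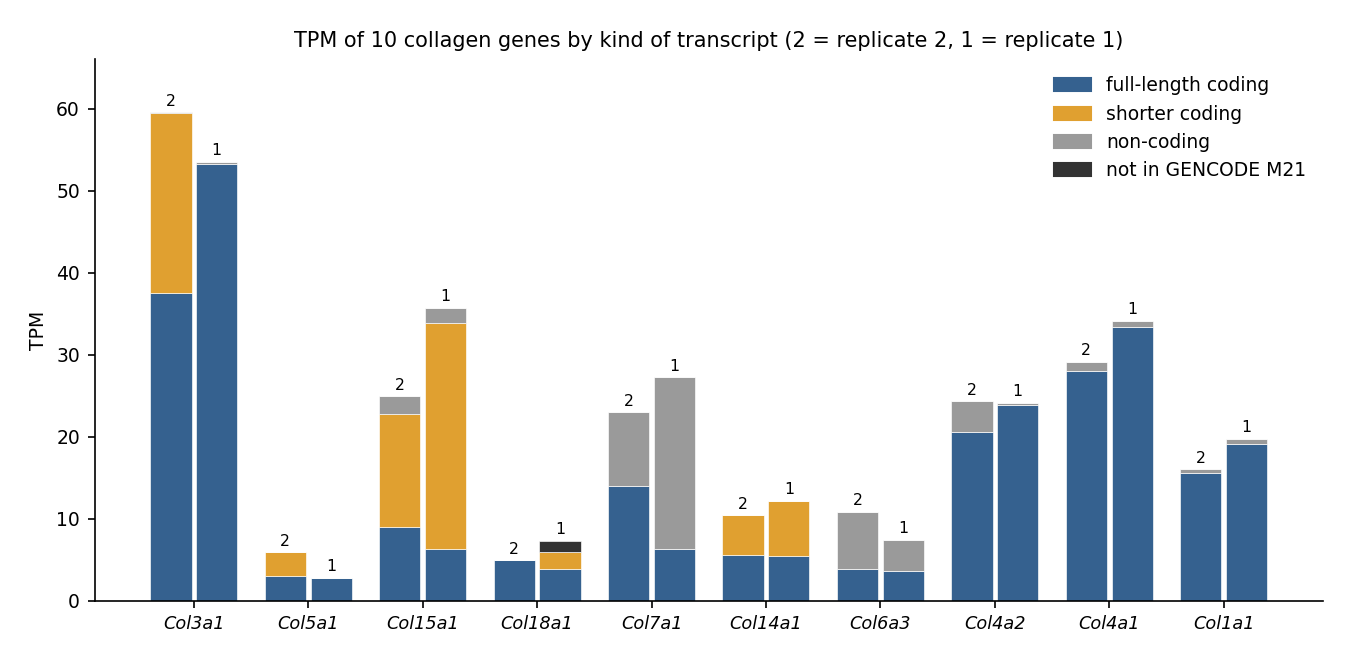
Stacked TPM of 10 collagen genes by kind of transcript, with replicate 2 left of replicate 1 for each gene. Blue is full-length coding, orange is shorter coding, grey is non-coding (retained introns included) and black is not in GENCODE M21. Col3a1 carries an orange part in replicate 2 alone, Col15a1 has more orange than blue in both libraries, Col7a1 is more grey in replicate 1, and Col4a1 and Col1a1 are almost wholly blue.

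Counts were then compared between the libraries, replicate 2 over replicate 1, to see how far a second library from the same tissue repeats the collagen profile. Each gene with a mean of 10 counts or more was tested by a two-sided exact binomial test with TMM scaling and Benjamini-Hochberg adjustment over all 12452 genes tested, and the calls needed both an adjusted p below 0.05 and at least 1 log2 unit between the libraries. The test compares 2 libraries and covers counting error only. Of the 30 collagen genes tested, 3 were called higher in replicate 2 and 0 lower, beside 12.3% of all tested genes called in either direction, 8.31% called higher and 4.0% called lower. The collagen share called was thus near the background. With the adjusted p alone and no limit on size, 10 of the 30 collagens passed (33.3%), against 36.2% of all genes. edgeR's exact test called the same number, 3 higher and 0 lower, with an assumed dispersion of 0.01, and 0 with 0.1. Of all tested genes it called 9.94% with 0.01 and 0.361% with 0.1.

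The called genes were Col7a1, Col16a1 and Col13a1. Col7a1 had 985 counts in replicate 2 and 557 in replicate 1, a log2 ratio of 1.30 (95% exact interval 1.15 to 1.46, adjusted exact p = 1.97e-66). Its gene TPM was the lower one in replicate 2, as given above, and its full-length TPM was the higher one, as the counts were. Col16a1 had 95 counts in replicate 2 and 44 in replicate 1, a log2 ratio of 1.58 (1.06 to 2.14, adjusted exact p = 7.06e-09). Few of these counts were assigned to full-length coding transcripts, which had 0.63 TPM in replicate 2 and were listed at 0 in replicate 1. Of the 0.63 TPM, 0.54 came from Col16a1-210, which is annotated with an incomplete start, and 0.09 from the complete Col16a1-201. The transcript with the most Col16a1 counts was Col16a1-209, annotated for nonsense-mediated decay, with 53.4 counts in replicate 2 and 22.8 in replicate 1. Col13a1 had 95 counts in replicate 2 and 63 in replicate 1, a log2 ratio of 1.07 (0.60 to 1.56, adjusted exact p = 3.03e-05).

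With TMM scaling, the abundant fibrillar and basement membrane genes were close between libraries. The log2 ratio of Col4a1 was 0.02 (95% exact interval -0.08 to 0.12), and that of Col4a2 was 0.08 (-0.04 to 0.20). For Col1a1 it was -0.02 (-0.16 to 0.12), and for Col1a2 it was 0.12 (-0.01 to 0.25). For Col3a1, the deepest of the family, it was -0.14, and the interval of -0.23 to -0.05 left out 0. Over the 30 genes the median log2 ratio was 0.04 and the SD 0.55, beside a median of -0.01 and an SD of 0.80 over all tested genes. The TMM-scaled count ratio and the TPM ratio, which is scaled to library totals, had opposite signs for 11 of the 30 collagens. With count ratios scaled to library totals, 8 still did. Precision followed depth, and the interval of Col9a3, with 13 counts in replicate 2 and 9 in replicate 1, spanned -0.32 to 2.42.

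Scaling bears on these calls. With library totals all ratios shift by -0.54, and 1 collagen was called higher (Col16a1) and 3 lower (Col12a1, Col8a1 and Col4a4); over all genes 342 were then called higher and 2603 lower, against 1035 higher and 498 lower with TMM. With totals that leave out mitochondrial genes, Gm42418, Gm26917 and Lars2 the shift is -0.13, and 2 collagens were called higher and 0 lower, with 787 higher and 788 lower over all genes. Collagen transcripts are longer and richer in G and C than most, with medians of 5456 bases and 54.8% in the tested members, beside 2697 bases and 50.2% in all tested genes. After a smooth trend on both was removed, the ratio of Col1a1 was -0.63 (adjusted exact p = 9.32e-17) and that of Col4a2 was -0.69 (adjusted exact p = 2.84e-28), neither past the limit of 1 log2 unit. In that setting, Col7a1 and Col16a1 were called higher and Col6a2 and Col11a2 lower. Col13a1 fell to 0.37, and the median was -0.25 for collagens and -0.03 for all genes. The trend used the length and GC content of the transcript with the highest TPM in each gene. For Col7a1 this was Col7a1-205, of 695 bases and 54.1% G and C, against 9250 bases and 61.6% for full-length Col7a1-202. Full-length transcripts held most Col7a1 counts, as given above. For Col16a1 it was a transcript of 833 bases. Whether both higher calls hold with the values of longer transcripts was not tested.

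**Figure D5:**
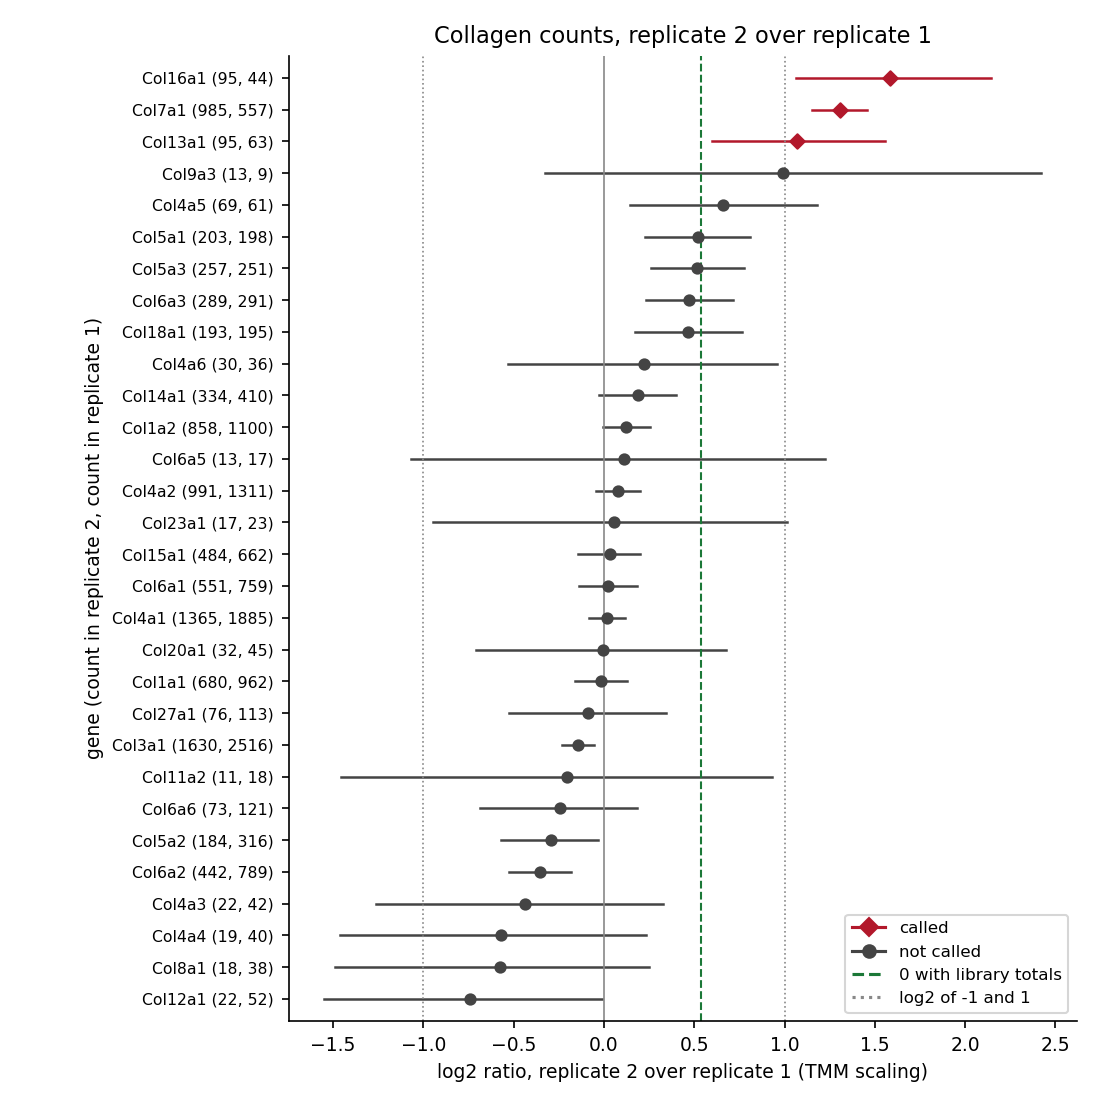
Log2 ratio of counts, replicate 2 over replicate 1, for the 30 tested collagen genes, with 95% exact intervals of counting error. Counts of replicate 2 and then replicate 1 stand beside each name, red diamonds mark called genes, dotted lines stand at -1 and 1, and the dashed line marks where 0 would lie with library totals. Col16a1, Col7a1 and Col13a1 lie right of 1, and 27 genes are not called.

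The machinery that makes and handles collagen was read from 9 lists with 81 genes, of which 62 reached 1 TPM in both libraries. Of the 72 genes tested, 2 were called higher in replicate 2 and 3 lower, with a median log2 ratio of 0.03. That is 2.78% called higher and 4.17% called lower, beside 8.31% and 4.0% of all tested genes, and the counts by role below are read against the same shares. With library totals 0 were called higher and 8 lower, beside 342 higher and 2603 lower of all 12452 genes tested (23.7% called). The ratios of P3h3 and Lama5 were then 0.96 and 0.91, under the limit of 1, and Mia3, Sec23a, Dcn, Ddr2 and Timp3 were called lower along with Creb3l1, Bgn and Timp1.

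Prolyl hydroxylation, which stabilises the triple helix, was led by P4hb, the beta subunit of prolyl 4-hydroxylase and a general disulfide isomerase, with 311 TPM in replicate 2 and 291 TPM in replicate 1. P4hb is used by all secretory cells and is not specific to collagen. Ppib, a prolyl isomerase of the same compartment, had 135 TPM in replicate 2 and 106 TPM in replicate 1. Crtap, a partner of prolyl 3-hydroxylase, had 16.4 TPM in replicate 2 and 31.6 TPM in replicate 1. P3h4 had 7.07 TPM in replicate 2 and 3.35 TPM in replicate 1. The catalytic alpha subunits were far lower than P4hb, with 5.17 TPM in replicate 2 and 4.98 TPM in replicate 1 for P4ha1. In this list 1 of 9 tested genes was called, P3h3, higher in replicate 2 with 71 counts against 35 in replicate 1 (log2 ratio 1.49, adjusted exact p = 2.07e-06).

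All 5 genes for lysyl hydroxylation and glycosylation were above 1 TPM in both libraries and none was called. Plod3, a lysyl hydroxylase that also adds sugar, had 7.99 TPM in replicate 2 and 8.25 TPM in replicate 1. Colgalt1, a collagen galactosyltransferase, had 8.16 TPM in replicate 2 and 6.79 TPM in replicate 1. The lysyl hydroxylases Plod1 and Plod2 had 6.74 and 2.75 TPM in replicate 2, against 6.04 and 2.21 TPM in replicate 1.

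For folding and export, Mia3 (TANGO1), which loads procollagen at exit sites, had 30.9 TPM in replicate 2 and 44.3 TPM in replicate 1. Serpinh1 (HSP47), the collagen chaperone, had 33.2 TPM in replicate 2 and 35.2 TPM in replicate 1. Mia2 had 17.3 TPM in replicate 2 and 27.3 TPM in replicate 1. Creb3l1, a transcription factor of the endoplasmic reticulum known to act on collagen genes in bone, was the 1 gene called of 10 tested, lower in replicate 2 with 138 counts against 447 in replicate 1 (log2 ratio -1.21, adjusted exact p = 2.27e-18).

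Propeptide cleavage genes were low apart from Pcolce, the enhancer of the C-proteinase, with 23.9 TPM in replicate 2 and 15.5 TPM in replicate 1. The C-proteinase Bmp1 had 5.86 TPM in replicate 2 and 6.98 TPM in replicate 1. Pcolce2 and the N-proteinase Adamts2 had 2.46 and 2.11 TPM in replicate 2, against 2.68 and 2.19 TPM in replicate 1. Of 6 genes tested, 0 were called by the exact binomial test.

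Crosslinking was represented by Loxl1, Loxl2, Lox and Pxdn. The lysyl oxidase relatives Loxl1 and Loxl2 had 8.38 and 2.98 TPM in replicate 2, against 5.70 and 4.86 TPM in replicate 1. Lox had 3.04 TPM in replicate 2 and 4.28 TPM in replicate 1, and Pxdn (peroxidasin), which forms the sulfilimine bond of type IV collagen, had 3.58 TPM in replicate 2 and 3.45 TPM in replicate 1. None of 5 tested was called.

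Among fibril regulators, the proteoglycan Dcn (decorin) had 218 TPM in replicate 2 and 442 TPM in replicate 1, above every collagen gene in both. The matrix protein Sparc had 90.2 TPM in replicate 2 and 127 TPM in replicate 1, and Dpt had 35.4 TPM in replicate 2 and 46.0 TPM in replicate 1. Bgn (biglycan) had 64.4 TPM in replicate 2 and 131 TPM in replicate 1, and it was the 1 gene called of 8, lower in replicate 2 (799 counts against 2326, log2 ratio -1.06, adjusted exact p = 6.14e-77).

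Of the basement membrane partners of type IV collagen, Hspg2 (perlecan) had 31.2 TPM in replicate 2 and 10.7 TPM in replicate 1. Agrn (agrin) had 20.4 TPM in replicate 2 and 16.0 TPM in replicate 1. Nid1 (nidogen), which bridges laminin and type IV collagen, had 13.3 TPM in replicate 2 and 22.1 TPM in replicate 1, and the laminin chain Lamb2 had 18.6 TPM in replicate 2 and 16.4 TPM in replicate 1. Of 13 tested, 1 was called, the laminin chain Lama5, higher in replicate 2 (270 counts against 138 in replicate 1, log2 ratio 1.45, adjusted exact p = 1.5e-21). Lama1 had no count.

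Among collagen receptors, the integrin subunit Itgb1 had 23.5 TPM in replicate 2 and 33.8 TPM in replicate 1, and its collagen-binding partner Itga1 had 4.17 TPM in replicate 2 and 6.31 TPM in replicate 1. The receptor kinases Ddr2 and Ddr1 had 6.74 and 5.65 TPM in replicate 2, against 8.71 and 3.78 TPM in replicate 1. None of 8 tested was called, and Gp6, the platelet collagen receptor, had no count. For degradation, the inhibitors Timp2 and Timp3 had 35.1 and 28.0 TPM in replicate 2, against 58.3 and 57.5 TPM in replicate 1. The proteinase Mmp2 and its activator Mmp14 had 8.56 and 7.22 TPM in replicate 2, against 9.4 and 7.90 TPM in replicate 1. Timp1 was the 1 gene called of 8, lower in replicate 2 with 4 counts against 22 in replicate 1 (log2 ratio -1.84, adjusted exact p = 0.0264), and Mmp8 had no count.

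Markers of the cells a pancreas can hold stand beside these values, since in bulk tissue fewer cells of a type and less RNA per cell cannot be told apart. The 6 acinar markers, with Ctrb1 and Cela2a the highest by mean TPM of both libraries, summed to 136854 TPM in replicate 2 and 108443 TPM in replicate 1, and the 6 islet markers, with Ins2 and Gcg the highest by the same mean, to 23533 TPM in replicate 2 and 21908 TPM in replicate 1. The 8 fibroblast and stellate markers, all detected and with Dcn and Dpt the highest by that mean, summed to 313 TPM in replicate 2 and 581 TPM in replicate 1, and the exact binomial test called 0 of 8 with TMM scaling and 3 lower (Dcn, Rgs5 and Des) with library totals. Smooth muscle (Acta2, Tagln), endothelium (Plvap, Pecam1) and adipocyte (Fabp4, Adipoq) sums were 119, 250 and 182 TPM in replicate 2, against 173, 303 and 291 TPM in replicate 1. Duct (Spp1, Krt19), mesothelium (Upk3b, Krt19) and immune (Lyz2, Cd68) sums were 117, 83.4 and 91.0 TPM in replicate 2, against 147, 83.7 and 103 TPM in replicate 1. Intestinal epithelium markers (Vil1, Lgr5) summed to 3.34 TPM in replicate 2 and 4.09 TPM in replicate 1, while Cdx2 and Alpi had no count. Of 60 marker genes tested, Cela2a, Tie1 and Msln were called higher in replicate 2, and Gcg, Emcn, the neuron marker Snap25, Cd79a and Lgr5 lower, beside 12.3% of all tested genes called. With library totals 0 markers were called higher and 23 lower, beside 342 higher and 2603 lower of all 12452 genes tested (23.7% called). The part of these in the collagen values was not tested.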

How the data were processed

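The deposited README texts name mm10 as the genome and GENCODE M4 as the annotation. The sources used here do not give the aligner, the quantifier or the use of strand in counting. Per the file headers, the authors deposited expected counts, which are estimates, along with TPM and FPKM. The authors also deposited posterior mean values with an SD, entered here as a signal. FPKM and the posterior mean TPM served only as alternatives. GENCODE M21 (GRCm38) supplied symbols and positions for 42462 of 43346 gene identifiers. Another 97 spike-in rows and 26248 numbered rows per gene table held no counts and were left out. The posterior SD of the gene count was 0 for every collagen.

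Members and gene lists were chosen with earlier results of these data known. Every collagen at 1 TPM or more in either library, every called gene, the 4 most abundant genes of each pathway role and the 2 most abundant markers of each cell type were named, with markers at 0 in both libraries. The result of 1 marker list is not reported here.

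Expected counts were rounded to whole numbers, and TMM factors were computed with edgeR 4.0.16 (R 4.3.3). A quasi-likelihood fit has no residual degrees of freedom here. Genes with a mean of 10 counts or more were therefore tested by a two-sided exact binomial test of their counts given the sum (scipy 1.17.1), with 0.5 added to both counts for the ratio. The binomial test was also run on simulated counts. These held counting error only, which the test assumes, so the run cannot show how it behaves with other differences between libraries. The p-values of the binomial test measure only counting error between technical replicates. Intervals are exact (Clopper-Pearson) at 95%. For a count of 0 the upper limit is 3 counts. DESeq2 1.42.0 gave alternative size factors, and mgcv 1.9.3 fitted the trend on GC content and length. Chain ratios are ratios of TPM, with intervals from the counts, for pairs in which both genes had 10 counts or more in both libraries. These intervals hold counting error only. Python 3.11.15, numpy 2.4.6, pandas 2.3.3 and matplotlib 3.10.9 were used.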

Additional observations from a re-analysis of the deposited data

How the results depend on the processing

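No paired analysis was possible because each side holds 1 library of the same animal. The count of collagens at 1 TPM or more in both libraries was 21, and it was 23 at 0.5 TPM, 17 at 2 TPM, 20 by FPKM, 28 by posterior mean TPM and 19 over full-length coding transcripts, an alternative chosen after seeing the data. The 28 include genes with no expected count, so they are not all detected. Among them, Col26a1 had a posterior mean TPM of 2.88 in replicate 2 and 2.61 in replicate 1, and Col2a1 had 1.88 in replicate 2 and 1.67 in replicate 1. Collagens called higher numbered 3 by the binomial test as reported, 1 with library totals and 0 by edgeR's exact test with an assumed dispersion of 0.1. Collagens called lower numbered 0 as reported, 3 with library totals and 2 after the trend on GC content and length was removed. Timp1 was no longer called by edgeR's exact test with an assumed dispersion of 0.01. With a dispersion of 0.1, all 8 calls were lost, those of the 3 collagens and those of the called pathway genes. After the trend on GC content and length was removed, 2 of these 8 calls were lost, Col13a1 and a pathway gene. The other size factors, count filters, posterior mean counts and added counts gave the same numbers of collagen calls, save 2 higher with the totals that leave out mitochondrial genes, Gm42418, Gm26917 and Lars2.

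Log2 ratios near 0 changed sign with the scaling. With library totals they were -0.52 for Col4a1, -0.50 for Col15a1, -0.41 for Col1a2, -0.46 for Col4a2, -0.52 for Col6a1, -0.35 for Col14a1, -0.063 for Col6a3, -0.068 for Col18a1, -0.019 for Col5a3, -0.018 for Col5a1, -0.48 for Col23a1, -0.31 for Col4a6 and -0.43 for Col6a5. With the reduced totals they were -0.11 for Col4a1, -0.099 for Col15a1, -0.0060 for Col1a2, -0.051 for Col4a2, -0.11 for Col6a1, -0.073 for Col23a1 and -0.022 for Col6a5. With upper quartile factors they were -0.011 for Col4a1 and -0.0067 for Col6a1. With the GC and length trend removed they were -0.45 for Col4a1, -0.13 for Col1a2, -0.69 for Col4a2, -0.38 for Col6a1, -0.27 for Col18a1, -0.39 for Col5a3, -0.33 for Col9a3 and -0.13 for Col23a1. Col20a1 turned from just below 0 to 3.3e-10 with DESeq2 size factors and to 0.0034 with 1 added to both counts. The shift in scale explains the first groups by construction, and for the trend the cause was not tested.

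Class shares, as the mean of both libraries, moved more than their spread. With expected counts and no correction for length, the shares were 40.5% fibrillar, 25.4% basement membrane, 14.4% beaded filament, 6.66% multiplexin, 7.03% anchoring fibril and 4.71% FACIT. Over full-length coding transcripts they were 42.5%, 23.9%, 18.8%, 5.21%, 4.47% and 3.37% in the same order. By posterior mean TPM the basement membrane share was 17.2%, the beaded filament share 14.8% and the FACIT share 8.07%. Fibrillar genes were the highest class in all of these. Chain ratios, also as the mean of both libraries, moved as well. The Col1a1 to Col1a2 ratio was 0.705 from deposited TPM and 0.834 from expected counts. The Col4a3 to Col4a4 ratio was 1.76 from deposited TPM, 2.92 by posterior mean TPM, 1.28 over full-length coding transcripts and 1.10 from expected counts. It rests on 19 to 42 counts per gene and library. The Col6a3 to Col6a1 ratio was 0.459 from deposited TPM and 0.186 over full-length coding transcripts.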

Other observations

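Proteins other than the named collagens also carry collagen-like Gly-X-Y stretches, and 31 such genes were read as a list chosen after the data had been seen, with no test drawn from it. They summed to 136 TPM in replicate 2 and 137 TPM in replicate 1, and 16 of the 31 reached 1 TPM in both. The complement chains C1qb, C1qa and C1qc, known from macrophages, led with 20.2, 23.7 and 19.6 TPM in replicate 2, against 25.1, 16.8 and 19.2 TPM in replicate 1. The fat hormone Adipoq had 14.2 TPM in replicate 2 and 17.5 TPM in replicate 1. The scavenger receptors Scara3 and Colec12 had 7.39 and 5.49 TPM in replicate 2, against 9.0 and 10.0 TPM in replicate 1. Emilin1, an elastic fibre protein, had 136 counts in replicate 2 and 71 in replicate 1.

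Other genes overlap collagen genes. Slc19a1, which overlaps Col18a1 on the other strand, had 14 counts in replicate 2 and 15 in replicate 1. Nt5dc1, which overlaps all 7105 bases of Col10a1 from the other strand, had 11 counts in replicate 2 and 23 in replicate 1, while Col10a1 had none.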
